A study of Mus musculus with 12 samples.

Results

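The subject is the response of the lincRNA-p21 knockout ventricle to pressure overload: the 3 libraries from knockout mice after transverse aortic constriction (TAC) set against the 3 from knockout mice after sham surgery, 6 of the 12 libraries of the study, across the 13916 genes, of 56350 listed, that reached 10 in 3 or more libraries. All 6 libraries came from mice that lacked lincRNA-p21 (gene symbol Trp53cor1), a p53-induced long noncoding RNA, in the whole body. The 6 libraries of littermates, 3 after TAC and 3 after sham, came from mice heterozygous for the deletion; they are called controls here and carried the same surgery but are not wild type. Tissue was the apex of the left ventricle, taken 8 weeks after surgery, and its polyadenylated RNA was sequenced. The labels give neither age nor strain, and do not name the mice, and p-values therefore cover only the spread among libraries. Each value is a normalised read count, the reads of a gene over the size factor of its library. Differences are given with their SE on the log2(value + 1) scale, on which low genes appear to change less than they did.

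TAC narrows the aortic arch, so that the left ventricle has to pump against a higher pressure. Cardiomyocytes then enlarge and turn genes of the fetal heart back on, among them natriuretic peptides, skeletal alpha actin and the slow myosin heavy chain. Fibroblasts lay down matrix, and the muscle draws less on fatty acids as fuel. In most mouse models these changes grow over weeks into heart failure, and immune and interferon genes can move along with them.

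Trp53cor1 (ENSMUSG00000085912.2, GRCm38 chromosome 17, 29057430 to 29079179) had 0 reads in each of the 6 knockout libraries, against 4, 0 and 3 reads in control TAC and 2, 0 and 2 in control sham libraries. The 6 knockout libraries together allow up to 0.0413 CPM (3 counts over the group; counting error only). Its neighbour Cdkn1a, which encodes the cell cycle inhibitor p21, stood at 266, 236 and 293 in knockout TAC libraries and 300.1, 265 and 269.6 in knockout sham libraries, and the groups overlapped. Reads in genes numbered from 10976256 to 13238934 in the knockout libraries. Mitochondrial genes took 19.1%, 19.99% and 19.96% of the reads of the knockout TAC libraries and 16.8%, 16.3% and 14.7% of those of the knockout sham libraries, with no overlap. Ventricular muscle markers summed to between 562220 and 628820 in TAC and between 624792 and 640187 in sham libraries. Much of this sum was Myh6 alone, at 269318, 183533 and 320822 after TAC and 310772, 311032 and 324744 after sham. The gap between the sums is therefore not a measure of the list, in which 4 of 10 tested markers were above 0 and 6 below. Of the 11 markers, Hand1 was at 0 in all knockout libraries. Fewer cells of a type and less RNA per cell cannot be told apart in such tissue samples.

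Knockout TAC replicate 3 stood apart from replicates 1 and 2. On the first component of the 6 knockout libraries (31.9% of the variance) replicates 1, 2 and 3 scored 20.4, 39.2 and −25.4, while the sham libraries lay between −11.9 and −11.1. On the second (24.4%) they scored 8.84, 4.47 and 35.9, above the sham libraries at −24.0 to −10.7. Counts of replicates 1 and 2 differed by a chi-square of 5.34 per gene, those of replicates 1 and 3 by 15.8 and of 2 and 3 by 22.1; sham pairs differed by 5.65 to 8.62. Haemoglobin genes took 0.0561%, 0.0824% and 0.0248% of reads in TAC replicates 1, 2 and 3 and from 0.0355% to 0.0509% in sham libraries. Across genes, the library's difference from the sham mean went with transcript length at a Spearman's rho of −0.07, −0.16 and 0.23 in replicates 1, 2 and 3. With GC content the rho was −0.34, −0.28 and −0.16, and −0.35 for the fitted knockout difference (0.006 with length). Each library's deviation from the mean of all 12 went with GC content at −0.24, −0.18 and −0.03 in the knockout TAC libraries. In the knockout sham libraries that rho was 0.17, 0.18 and 0.21. These are descriptions over genes that are not independent. Voom gave TAC replicates 1, 2 and 3 weights of 2.75, 1.32 and 0.427. Values of most genes and lists discussed below are therefore given per replicate, with the change without replicate 3 where that matters. Genes named in brackets with a single number are given by their difference only.

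The first question was what 8 weeks of overload did to ventricles without lincRNA-p21. In the fit over all genes 1 gene passed (adjusted p under 0.05), which is 0.00719% of those tested, and none was called lower (0.0%). DESeq2 called 16 up and 7 down, and edgeR 1 up and 0 down. The count moved most with how the libraries were weighted and the spread was estimated. A fit of the knockout libraries alone called 32 genes (16 up, 16 down). Voom with quality weights called 837 (424 up, 413 down) and array weights 2410 (1115 up, 1295 down). Both kinds of weight were highest for knockout TAC replicate 1. With an unadjusted p under 0.05, 441 genes were higher (3.17%) and 488 lower (3.51%), 6.68% in either direction. Without regard to a test, all 3 TAC libraries lay above all 3 sham libraries for 1156 genes (8.31%) and below them for 1234 (8.87%). In controls, the same fit called 1533 genes up (11.0%) and 1473 down (10.6%). Without knockout TAC replicate 3 the knockout comparison called 7 genes; without that library and control sham replicate 3, the pair that stood apart most and weighed least by voom, it called 209, 90 up and 119 down.

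Nlrc3 (ENSMUSG00000049871.14, chromosome 16, 3945007 to 3976632, minus strand), a negative regulator of innate immune signalling, was the gene that passed. It measured 116, 83.2 and 106 in the knockout TAC libraries and 25.4, 23.7 and 26.2 in the sham libraries. The groups lay far apart, and replicate 3 fell within the range of the other two TAC libraries. Nlrc3 rose by 1.96 ± 0.23 (limma-trend, adjusted p = 0.0034). Without TAC replicate 1 it did not pass (adjusted p = 0.065). Edn3 (ENSMUSG00000027524.9, chromosome 2), which encodes the peptide hormone endothelin 3, came next. Its values were 145, 193 and 90.5 after TAC and 36.6, 40.1 and 19.9 after sham, a difference of 2.11 ± 0.36 that missed the threshold (adjusted p = 0.16). Its lowest TAC library was still above the highest sham library. Both genes rose in controls, Nlrc3 by 3.37 ± 0.23 and Edn3 by 2.66 ± 0.36 (adjusted p = 6.3e-07 and 0.00030).

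The hypertrophy and fetal gene list was mostly higher after TAC in knockouts. Of 31 members tested 25 were above 0, with a median difference of 0.24 against −0.01 over all genes. None passed; 13 had an unadjusted p under 0.05, all upward (3.17% of all genes had), and for 16 all TAC libraries lay above all sham libraries (8.31% of all genes). The median of the list was 0.26, 0.32 and 0.26 in TAC replicates 1, 2 and 3. Replicate 3 was nevertheless the lowest TAC library for 19 of the 31.

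Acta1, the skeletal muscle actin of the fetal heart, was at 24979, 24992 and 9170.0 in the knockout TAC libraries and 5095, 4701 and 5397 in sham libraries. Replicates 1 and 2 were almost equal and replicate 3 lay between them and sham. The difference was 1.82 ± 0.37 (adjusted p = 0.41), and 2.30 without replicate 3, where it passed. Ankrd1, a stretch-responsive titin-binding protein, was at 30110.3, 31786 and 20914 after TAC and 13625, 14512 and 13591 after sham (0.97 ± 0.19, adjusted p = 0.40). Mybpc2, the fast skeletal myosin binding protein C, did not share the drop in replicate 3: it was at 564, 551 and 543 after TAC and 337, 260.0 and 289 after sham (0.91 ± 0.18, adjusted p = 0.40).

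Xirp2, an actin-binding protein of the intercalated disc, measured 11497, 9801 and 9309.6 after TAC and 6231, 6715 and 6322 after sham, again without overlap (0.66 ± 0.21, adjusted p = 0.61). The slow myosin heavy chain Myh7 measured 14850.0, 18721 and 13567 after TAC against 9949, 10469 and 9592 after sham (0.64 ± 0.26, adjusted p = 0.70). The natriuretic peptides parted: Nppa was at 1848, 1779 and 1182 after TAC and 749, 812 and 777 after sham, while Nppb was at 7633, 9318 and 3313 after TAC and 4389, 4893 and 4969 after sham. Nppb in replicate 3 was thus below every sham library, and its difference of 0.38 ± 0.49 was smaller than its SE (adjusted p = 0.92). Rcan1, a target and inhibitor of calcineurin, had 2716, 2500.0 and 1801 after TAC and 1411, 1566 and 1561 after sham.

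Promoters of 3 hypertrophy genes are shown because stretch and overload act on such genes in cardiomyocytes through factors that read the M-CAT element and the CArG box. RefSeq start sites on GRCm38.p6 matched 28 of the 31 members. The M-CAT letters CATTCC, on either strand, stood within 250 bases before to 50 bases after a start in 7 of them (25.0%) and in 16.6% of all 27025 symbols in the promoter table. The CArG box was found in 3 (10.7%), against 1.81% of all. These matches describe the letters only. The 150 bases before the start, 5′ to 3′ on the gene's strand, carry M-CAT matches in capitals in all 3 and the CArG box in capitals, upstream of it, in Acta1. The windows are chr8:123894776-123894925 (minus strand), chr19:36119845-36119994 (minus) and chr7:44524670-44524819 (minus).
Acta1: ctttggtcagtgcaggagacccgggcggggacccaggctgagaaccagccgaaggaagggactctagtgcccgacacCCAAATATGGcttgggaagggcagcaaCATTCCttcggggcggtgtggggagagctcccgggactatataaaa
Ankrd1: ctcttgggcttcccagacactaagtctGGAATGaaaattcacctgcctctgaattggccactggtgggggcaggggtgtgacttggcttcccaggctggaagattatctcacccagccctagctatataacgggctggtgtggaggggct
Mybpc2: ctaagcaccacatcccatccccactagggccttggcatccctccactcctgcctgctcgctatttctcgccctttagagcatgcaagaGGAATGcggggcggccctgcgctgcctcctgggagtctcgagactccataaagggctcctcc

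**Figure D1:**
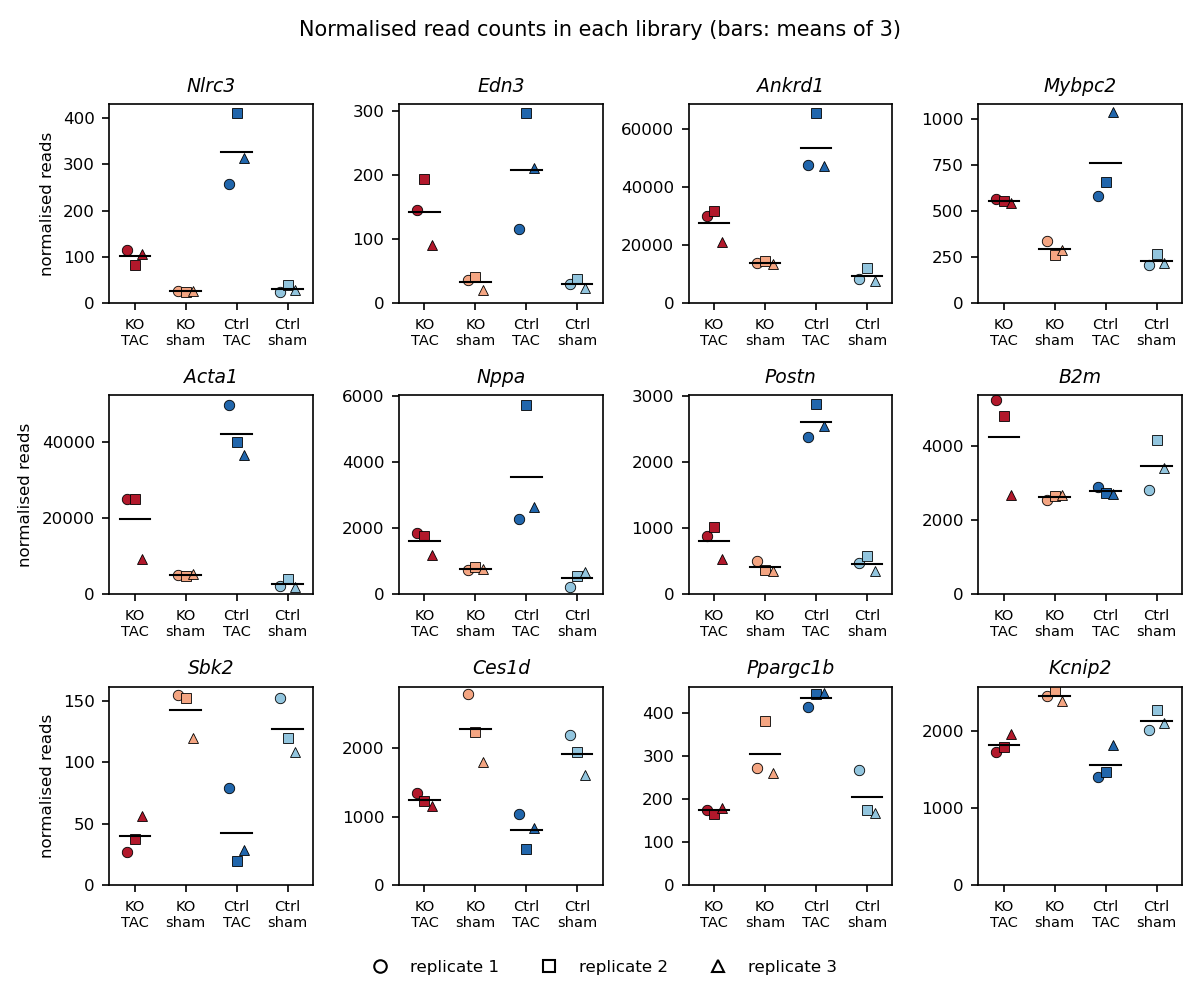
Normalised read counts of 12 genes in each library, with knockout TAC left of knockout sham and control TAC left of control sham; symbols mark replicate numbers and bars the means of 3. Acta1 and B2m in knockout TAC replicate 3 (triangle) lie near the sham libraries, while Nlrc3, Mybpc2 and Ppargc1b hold the 3 TAC libraries together.

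Matrix genes lay on both sides of sham in knockouts. Of 64 tested 13 had an unadjusted p under 0.05 upward and 5 downward, beside 3.17% and 3.51% of all genes, none passed, and the list median was 0.15, with 0.07, 0.31 and −0.01 in TAC replicates 1, 2 and 3. Postn, the matricellular protein of activated fibroblasts, was at 886, 1015 and 529 after TAC and 509.7, 367 and 348 after sham (0.95 ± 0.23, adjusted p = 0.43), its lowest TAC library just above the highest sham library. The small proteoglycan Aspn had 404, 436 and 258 after TAC and 189, 198 and 166 after sham, and Bgn, another, had 3045, 3741 and 3290.4 after TAC and 2575, 2315 and 2226 after sham. Meox1, a transcription factor of activated fibroblasts, was at 300.3, 399 and 282 after TAC and 182, 188 and 177 after sham (0.82 ± 0.26, adjusted p = 0.63). Tgfb2, a growth factor ligand, had 130.4, 161 and 141 after TAC and 95.6, 106 and 101 after sham.

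The fibrillar collagen genes Col1a1 and Col3a1 overlapped between the groups. Col1a1 measured 1049.6, 1154 and 1264 after TAC and 1201, 1287 and 1294 after sham, and Col3a1 2649, 2898 and 2199.8 after TAC and 2836, 2585 and 2854 after sham. The differences were −0.13 ± 0.15 and −0.10 ± 0.15 (adjusted p = 0.91 and 0.93). Ltbp1, which holds latent TGF-beta in the matrix, was lower in every TAC library, at 547, 579 and 627 after TAC and 719, 841 and 863 after sham (−0.46 ± 0.15, adjusted p = 0.61).

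Interferon response genes were higher in knockouts after TAC, most of all in replicates 1 and 2. Of 64 tested 61 were above 0 (49.1% of all genes were), 17 had an unadjusted p under 0.05 upward and 0 downward (3.17% and 3.51% of all genes), and none passed. The median was 0.36 in knockouts, against −0.10 in controls, and it was 0.57, 0.42 and 0.09 in TAC replicates 1, 2 and 3. Members summed to 27480, 25188 and 19415 in knockout TAC and 17724, 17706 and 20756 in knockout sham libraries. In controls they summed to 19314, 16988 and 19412 after TAC and 18426, 26609 and 25449 after sham. Control sham replicates 2 and 3 were thus near the level of knockout TAC replicates 1 and 2. Without replicate 3 the list's median was 0.48, and 40 of 64 members were above all sham libraries in both remaining TAC libraries, where 19.7% of all genes were. The list's difference between genotypes was not tested.

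B2m, the light chain of class I histocompatibility molecules, showed the split most plainly: 5239, 4827 and 2673 after TAC and 2547, 2660.3 and 2676 after sham. Replicate 3 lay within the sham range there, and the difference was 0.63 ± 0.20 (adjusted p = 0.63), or 0.94 without replicate 3, where it passed. The difference of its TAC effects between knockouts and controls was 0.93 ± 0.29 and did not pass (adjusted p = 0.14). Other members held in all 3 libraries. Samd9l, an antiviral protein, had 283, 273 and 309 after TAC and 205, 169 and 213 after sham. Trim30d, of a cluster of closely related Trim30 genes that could share reads, had 43.5, 42.1 and 34.9 after TAC and 5.09, 18.2 and 19.0 after sham (1.63 ± 0.39, adjusted p = 0.41), and its neighbour Trim30a 159, 146 and 125 after TAC and 85.5, 115 and 82.3 after sham. Ifit2, an RNA-binding antiviral protein, had 298, 211 and 159 after TAC and 130.2, 124 and 152 after sham. Parp14, an ADP-ribosyltransferase, had 565, 461 and 516 after TAC and 361, 361 and 426 after sham. Oas1a, which senses double-stranded RNA, had 37.7, 31.1 and 38.2 after TAC and 26.4, 15.5 and 24.4 after sham, so that replicate 3 was the highest library there.

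The interferon-stimulated response element is the site through which interferon signalling switches on such genes. Its letters, GAAA, any 2 bases and GAAA, on either strand, were in the promoter window of 22 of the 45 members with a RefSeq match (48.9%) and of 3.99% of all symbols. Of the 13 matched members whose TAC libraries all lay above sham 5 held it (38.5%). The element is given in capitals in the 150 bases before the start of 3 interferon genes, Trim30a and Oas1a, whose TAC libraries all lay above sham, and B2m, whose replicate 3 did not, on GRCm38.p6: chr7:104465194-104465343 (minus strand), chr5:120907526-120907675 (minus) and chr2:122147537-122147686 (plus). In Trim30a it reads on the opposite strand, and in Oas1a a pair of matches overlap.
Trim30a: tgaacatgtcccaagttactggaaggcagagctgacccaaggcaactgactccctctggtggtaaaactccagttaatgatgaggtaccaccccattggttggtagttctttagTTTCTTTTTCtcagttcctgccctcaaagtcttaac
Oas1a: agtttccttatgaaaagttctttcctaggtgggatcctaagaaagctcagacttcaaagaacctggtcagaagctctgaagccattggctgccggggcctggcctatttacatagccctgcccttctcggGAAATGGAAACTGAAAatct
B2m: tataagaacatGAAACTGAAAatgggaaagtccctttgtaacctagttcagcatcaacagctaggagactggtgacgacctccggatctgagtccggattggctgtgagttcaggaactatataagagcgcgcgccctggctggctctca

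**Figure D2:**
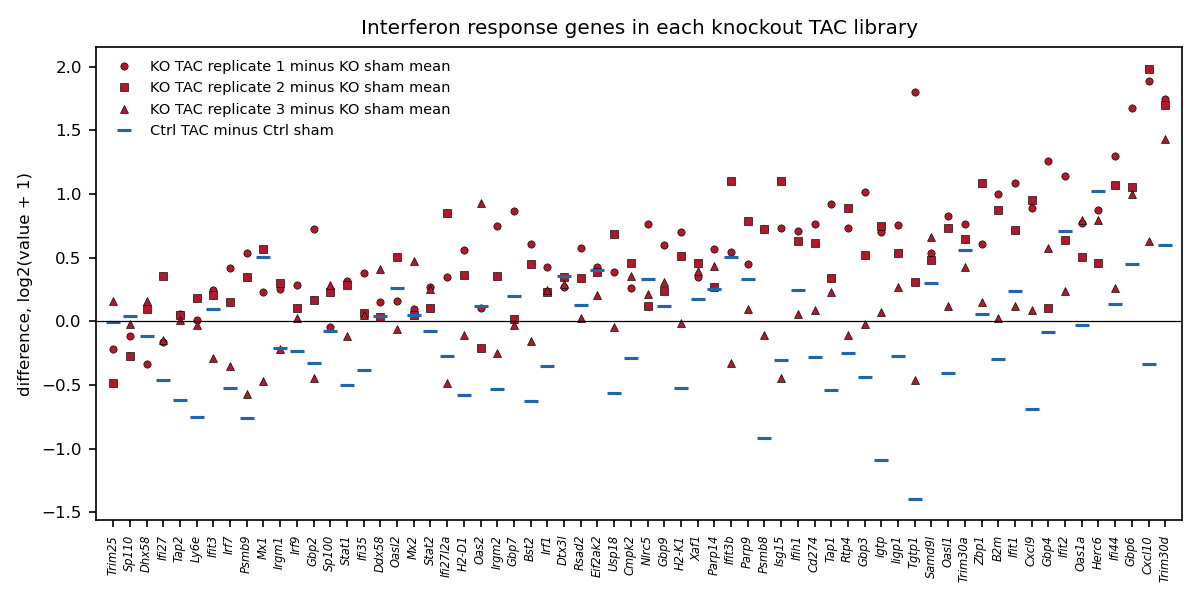
Difference of each interferon response gene from the knockout sham mean in the 3 knockout TAC libraries (red) and the TAC effect in controls (blue bars), on the log2(value + 1) scale, ordered by the mean difference in knockouts. Circles and squares (replicates 1 and 2) lie mostly above 0 and triangles (replicate 3) close to it, with list medians of 0.57, 0.42 and 0.09.

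Genes of fatty acid oxidation were lower in knockouts after TAC, evenly across the TAC libraries. Of 42 tested 35 were below 0, 11 had an unadjusted p under 0.05 downward (3.51% of all genes) and 0 upward, and for 17 every TAC library lay below every sham library (8.87% of all genes), with 0 above. None passed. The median was −0.18, with −0.16, −0.18 and −0.20 in replicates 1, 2 and 3, and −0.30 in controls. Acaa2, the last enzyme of mitochondrial beta-oxidation, was at 14384, 14181 and 14198 after TAC and 19778, 17797 and 17004 after sham (−0.35 ± 0.12, adjusted p = 0.64). Ppargc1b, a coactivator of mitochondrial and fatty acid genes, had 176, 166 and 179 after TAC and 273, 380.4 and 261 after sham (−0.79 ± 0.18, adjusted p = 0.41). Its TAC libraries lay close together and well under sham.

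The fatty acid transporter Slc27a1 was an exception in replicate 3, with 1433, 1180.1 and 2311 after TAC and 2801, 2281 and 2253 after sham. Nuclear subunits of oxidative phosphorylation differed by library: the list median was −0.12 over 77 genes (−0.73 in controls, where 69 fell), and −0.02, 0.03 and −0.36 in replicates 1, 2 and 3. Replicate 3 was the lowest TAC library in 71 of the 77. Cytosolic ribosomal proteins had the same split, with medians of 0.07, 0.14 and −0.35, as had mitochondrial ribosomal proteins, with 0.06, 0.10 and −0.29; these are short transcripts, and the part of transcript length in replicate 3 was not tested.

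Mitochondrially encoded genes went the other way. The 7 tested of 13 were all above 0 with no overlap between groups, a median of 0.32, and 0.30, 0.34 and 0.31 in the 3 replicates. The genes mt-Atp6, mt-Atp8, mt-Co2, mt-Co3 and mt-Nd4l were at 0 in all knockout libraries. Such a 0 is not a measure of absent expression, and the part of read counting in it was not tested. The list and the mitochondrial share of reads therefore cover only part of the 13 genes. The median of controls was −0.02. mt-Nd4, a subunit of complex I, was at 323928, 346807 and 382361 after TAC and 301556, 250640.3 and 239319 after sham (0.42 ± 0.13, adjusted p = 0.61). After removal of each library's trend with transcript length and GC content the list median was 0.02, against 0.32 with it.

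Potassium and sodium channel genes, which shape the cardiac action potential, were mostly lower: 26 of 31 were below 0, 13 had every TAC library below sham and 1 above (8.87% and 8.31% of all genes), none passed, and the median was −0.24 (−0.25, −0.33 and −0.19 by replicate). Kcnip2, the subunit that carries the fast transient outward current with Kv4 channels, had 1725, 1789 and 1964 after TAC and 2461, 2522 and 2395 after sham (−0.43 ± 0.13, adjusted p = 0.58). The hERG channel gene Kcnh2 had 565, 592 and 786 after TAC and 1114, 1035 and 894 after sham. Replicate 3 was the highest TAC library in both genes, yet under all sham libraries.

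The p53 target list was of interest because lincRNA-p21 is induced by p53. Of 29 tested 18 were above 0 (49.1% of all genes were), and the median was 0.11 (0.03, 0.15 and 0.09 by replicate). Only Eda2r had an unadjusted p under 0.05, upward, as had 3.17% of all genes, so the list lay near that share. All TAC libraries were above sham for 3 members and below for 0, beside 8.31% and 8.87% of all genes. Eda2r, a receptor of the tumour necrosis factor family, had 64.7, 51.0 and 70.9 after TAC and 37.6, 21.9 and 33.5 after sham, without overlap. Heat shock genes were higher by a median of 0.18: 17 of 20 were above 0, and 10 had all TAC libraries above sham and 2 below, where 8.31% and 8.87% of all genes did. The chaperone Hspa8 had 3863, 3386 and 3595 after TAC and 3108, 2955 and 2803 after sham (0.29, adjusted p = 0.79). Genes of glucose uptake and glycolysis had a median of −0.15, with 9 of 23 below sham in every TAC library and 2 above, and the citric acid cycle −0.10, with 7 of 26 below and 0 above, beside the same shares of all genes. None of these lists had a member that passed.

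**Figure D3:**
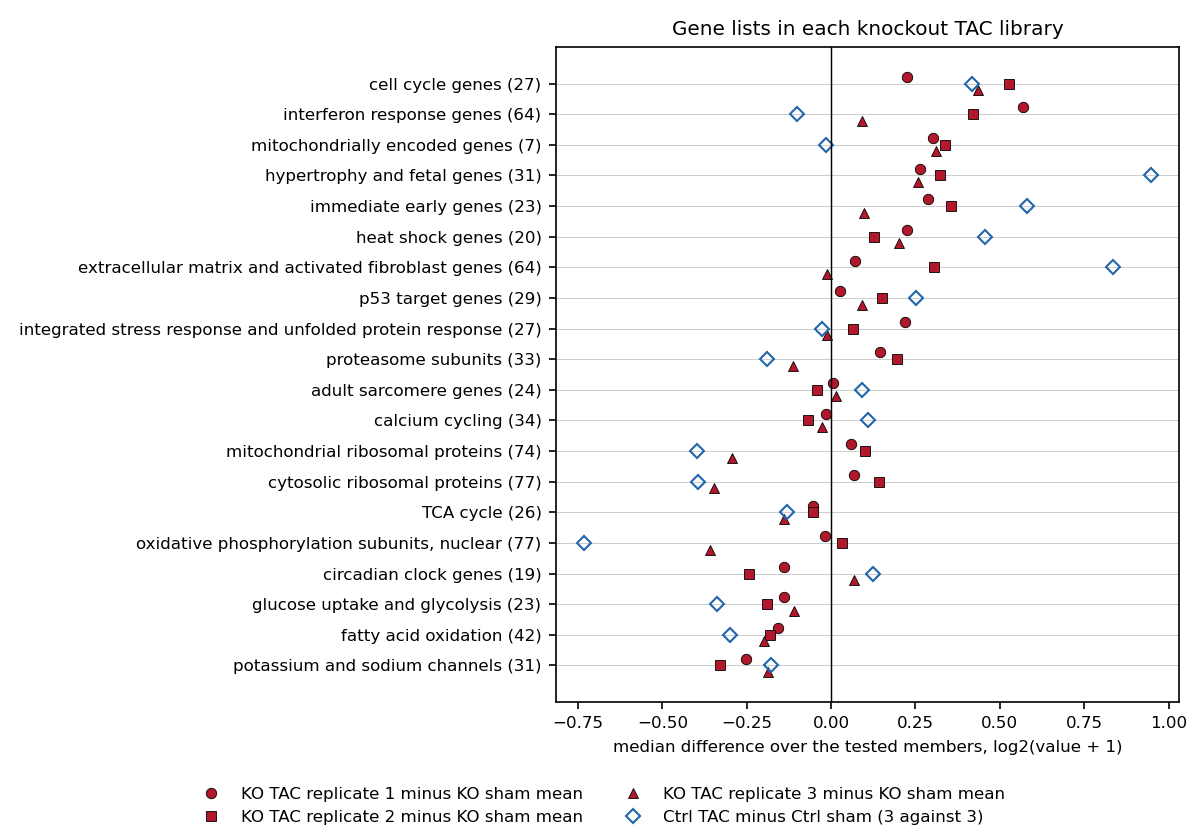
Median difference of each gene list (number of tested members in brackets) in each knockout TAC library from the knockout sham mean (red) and of TAC minus sham in controls (blue diamonds), on the log2(value + 1) scale. Fatty acid oxidation and mitochondrially encoded genes hold the 3 knockout libraries together, while oxidative phosphorylation, ribosomal protein and interferon genes set replicate 3 (triangles) below replicates 1 and 2.

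Beyond these lists, genes with the largest differences and no overlap were named by rule; none but Nlrc3 passed. Among the highest were Aqp8, a water channel, at 207, 183 and 123 after TAC and 42.7, 58.4 and 72.4 after sham (1.55 ± 0.34), Dct, a melanin pathway enzyme, at 134, 69.9 and 85.1 after TAC and 39.7, 31.9 and 35.3 after sham, and Cpxm2, a secreted carboxypeptidase-like protein, at 1625, 1803 and 1188 after TAC and 694, 679 and 821 after sham (1.06 ± 0.27). The others were Gbp6 (1.24), Ttc39a (1.11), mt-Te (1.08), Klhl34 (1.07), Eda2r (1.00), Tnfaip8l1 (1.00), Map3k8 (0.96) and Mapk4 (0.96). Their adjusted p ran from 0.41 to 0.64. Tnfaip8l1 had 74.4, 95.4 and 64.3 after TAC and 30.5, 38.3 and 47.0 after sham, and differed by −0.35 ± 0.24 in controls; the difference of the effects did not pass (1.35 ± 0.34, adjusted p = 0.087).

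The lowest was Sbk2, an SH3-binding kinase gene, at 27.0, 37.7 and 56.7 after TAC and 155, 152 and 119 after sham (−1.84 ± 0.39, adjusted p = 0.41). Its relative Sbk3, the next gene on the same strand of chromosome 7, was also among the lowest, at 33.8, 17.7 and 19.6 after TAC and 71.2, 44.7 and 58.8 after sham. Ces1d, a lipid-hydrolysing carboxylesterase, had 1342, 1221 and 1153 after TAC and 2778, 2238 and 1797 after sham (−0.85 ± 0.21, adjusted p = 0.43). Ccl11, the eotaxin chemokine, had 36.7, 24.4 and 44.7 after TAC and 104, 86.7 and 77.8 after sham. Others were Tmprss13 (−1.60), Opn4 (−1.27), Hpdl (−1.15), Bmper (−1.12), Fam122b (−1.05), Acot1 (−1.02), Sorcs2 (−0.99), Col6a6 (−0.96), Dnaaf3 (−0.86), Slit2 (−0.85) and Flvcr2 (−0.85).

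Genes in which replicate 3 departed most from replicates 1 and 2 were chosen on that difference and are a description. Below Acta1 and Nppb, the lowest in replicate 3 included the noncoding RNA AW112010, with 342, 352 and 137 in TAC replicates 1, 2 and 3 and 187, 167 and 219.8 after sham, and Lars2, a mitochondrial leucyl-tRNA synthetase, with 10295, 8579 and 4558 after TAC and 9607, 12991 and 8339.8 after sham. The highest included Rnf207, a ubiquitin ligase gene of the heart, with 769, 766 and 1983 after TAC and 1531, 1229.8 and 1245 after sham, Leng8, with 1293, 1289 and 3071 after TAC and 2218, 1976 and 2079.7 after sham, and the long noncoding RNA Firre, with 394, 336 and 859 after TAC and 595, 552 and 530.1 after sham. For these 3 genes replicates 1 and 2 lay below and replicate 3 above all sham libraries, so the mean of the TAC group matches none of its libraries.

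Genes that TAC changed in controls mostly lay on the same side of sham in knockouts. The genes were chosen on the control libraries, so their size in controls is a description, not a measure to set the knockout size against. Across all genes, the TAC effect went with GC content at a Spearman's rho of −0.44 in controls and −0.35 in knockouts. With transcript length the rho was 0.39 and 0.006. The part of these trends in the shared direction was not tested, and shares with the trends removed are given below. The values of the knockout libraries did not enter the control differences, but all 12 libraries shared one estimate of the spread: without a single knockout library between 2529 and 3238 genes were called in controls, against 3006. Of the 1533 that rose in controls, by a median of 0.76, 332 (21.7%) had all knockout TAC libraries above all knockout sham libraries and 27 (1.76%) all below, against 8.31% and 8.87% of all genes. Their median in knockouts was 0.11. Of the 1473 that fell in controls, by a median of −0.64, 418 (28.4%) had all TAC libraries below and 8 (0.543%) above, and the knockout median was −0.15. Of the 1533, 161 had an unadjusted p under 0.05 upward in knockouts, and of the 1473, 208 downward.

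Replicate 3 was not the weakest library on this measure. Of all genes, 49.4%, 49.9% and 50.8% were above the knockout sham mean in TAC replicates 1, 2 and 3. Among the genes that rose in controls, 69.9%, 58.5% and 76.1% were above that mean, with medians of 0.12, 0.07 and 0.15. Among those that fell, 22.7%, 34.8% and 14.2% were above it, with medians of −0.13, −0.10 and −0.23. Replicate 3 thus lay furthest in the control direction over these genes, while it lay closest to sham for Acta1, Postn, B2m and Nppb. After removal of each library's trend with length and GC content, the rising genes gave 67.8%, 62.2% and 60.4%, beside 51.7%, 52.9% and 46.5% of all genes. Replicate 3 had the lowest share in both, so these shares do not rank it last. The falling genes gave 34.97%, 40.6% and 20.95%, which keeps replicate 3 furthest in the control direction. Among 627 genes that rose in controls with the trend removed, 76.2%, 72.1% and 69.4% were above the knockout sham mean. Among 932 that fell, 26.7%, 37.8% and 13.3% were.

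**Figure D4:**
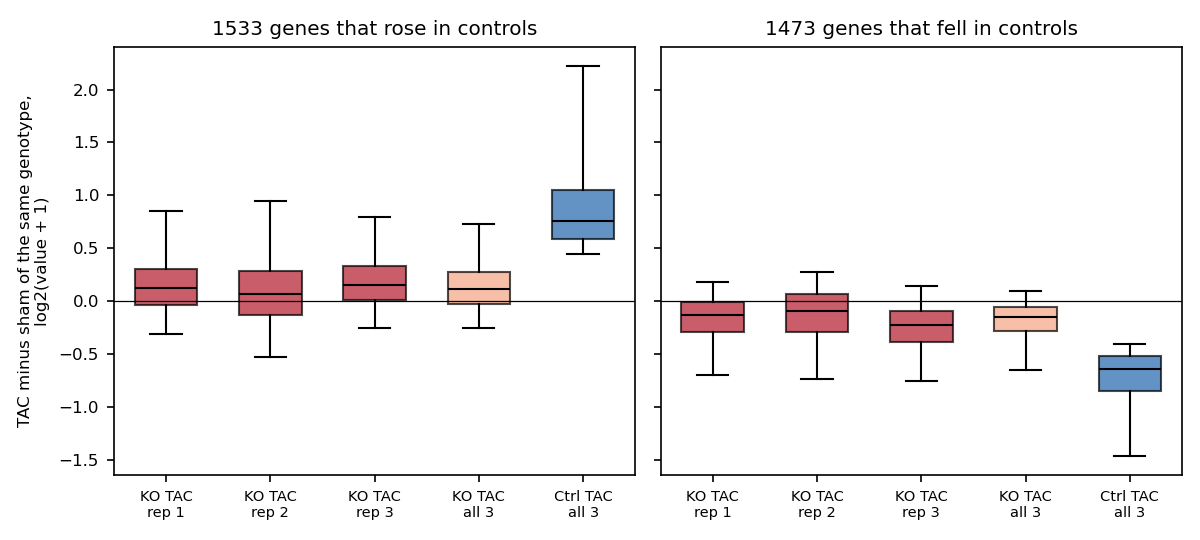
Differences from the sham mean of the same genotype, on the log2(value + 1) scale, of the 1533 genes that rose (left) and the 1473 that fell (right) in controls, in each knockout TAC library (red), their fitted mean and in controls (blue, the values that chose the genes); boxes span the quartiles, whiskers the 5th to 95th percentile. The knockout medians are 0.12, 0.07 and 0.15 on the left and −0.13, −0.10 and −0.23 on the right.

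The difference of the TAC effects, knockout minus control, was tested directly. It passed for 43 genes (0.309%), 41 lower (0.295%) and 2 higher (0.0144%) in knockouts; those 2, Fahd2a and Hey1, fell in controls and differed by 0.05 ± 0.12 and 0.26 ± 0.16 in knockouts, where neither passed (adjusted p = 0.95 and 0.80). Thbs4, a matricellular thrombospondin, had 121, 91.0 and 70.9 in knockout TAC libraries and 74.3, 51.1 and 50.7 in knockout sham libraries, an overlap, where control TAC averaged 982 ± 199.5 and control sham 62.4 ± 2.95 (SD, n = 3 each). Its effect was 0.66 ± 0.22 in knockouts and 3.94 ± 0.22 in controls, a difference of −3.27 ± 0.31 (adjusted p = 0.00010). Comp, another thrombospondin of the matrix, measured 22.2, 43.3 and 38.2 after TAC and 28.5, 31.0 and 40.7 after sham in knockouts and rose by 3.32 ± 0.28 in controls (difference −3.31 ± 0.40, adjusted p = 0.0018).

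Myh7 had a difference of −2.86 ± 0.37 (adjusted p = 0.0043), with 41990.2 ± 15464 in control TAC and 3664 ± 1111 in control sham libraries (SD, n = 3 each). Knockout sham libraries, at 9592 to 10469, stood above every control sham library, the highest of which had 4584. The same held for Ankrd1 (13591 to 14512 against at most 12075), Acta1 (4701 to 5397 against 3909), Nppa (749 to 812 against 674) and Nppb (4389 to 4969 against 3436). For Xirp2, Thbs4, Comp, Cilp and Ltbp2 the sham libraries of the genotypes overlapped. The part of the sham level in the differences of effects was not tested. Matrix genes Cilp (−3.09), Ltbp2 (−2.55), Fmod (−3.22), Col8a1 (−1.61), Col12a1 (−4.03) and Svep1 (−1.62), the muscle genes Ankrd1 (−1.57), Xirp2 (−1.95) and Enah (−1.17), the deiodinase Dio2 (−3.18), the flippase Atp8a2 (−1.58) and the atrial light chain Myl7 (−5.44) also passed. Myl7 was low in knockouts, at 2.90, 2.22 and 0 after TAC and 18.3, 10.04 and 1.81 after sham. Atrial markers summed to between 3069 and 3603 in knockout TAC and between 2839 and 3156 in knockout sham libraries. The sums were 4201, 7501 and 4488 in control TAC and 2666, 2850.1 and 2904 in control sham libraries. These sums include Nppa, at 2286, 5749 and 2651 in control TAC and 218, 553 and 674 in control sham libraries. The median of the 11 atrial markers tested was −0.28 in knockouts (4 above 0, 7 below) and −0.53 in controls. That control median covers a split list, with 5 markers called up and 3 down in controls. Sln, another atrial marker, was at 24.9, 40.2 and 69.9 in control TAC and 1.07, 0.949 and 1.70 in control sham libraries. In knockouts Sln was at 0.966, 0 and 0 after TAC and at 0 after sham. Its difference of effects did not pass (−3.93 ± 0.97, limma-trend, adjusted p = 0.085). The part of atrial tissue in the Myl7 difference was not tested. Ppargc1b moved in opposite directions: −0.79 ± 0.18 in knockouts (all TAC under all sham libraries) and 1.12 ± 0.18 in controls, where 435 ± 18.6 after TAC stood against 204 ± 55.7 after sham (difference −1.91 ± 0.26, adjusted p = 0.0043). Nlrc3, Edn3 and Acta1 did not pass this test, with differences of −1.41 ± 0.33, −0.56 ± 0.50 and −2.28 ± 0.52 (adjusted p = 0.075, 0.62 and 0.087). The count of 43 became 21 with the length and GC trend removed, 16 of them shared, and 283 without knockout TAC replicate 3, all 43 among them; it was 21 and 24 without knockout TAC replicates 1 and 2, and 14 and 16 without knockout sham replicates 2 and 3. Among controls, it was 21 and 8 without TAC replicates 1 and 2, and 755, 22 and 102 without sham replicates 1, 2 and 3.

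**Figure D5:**
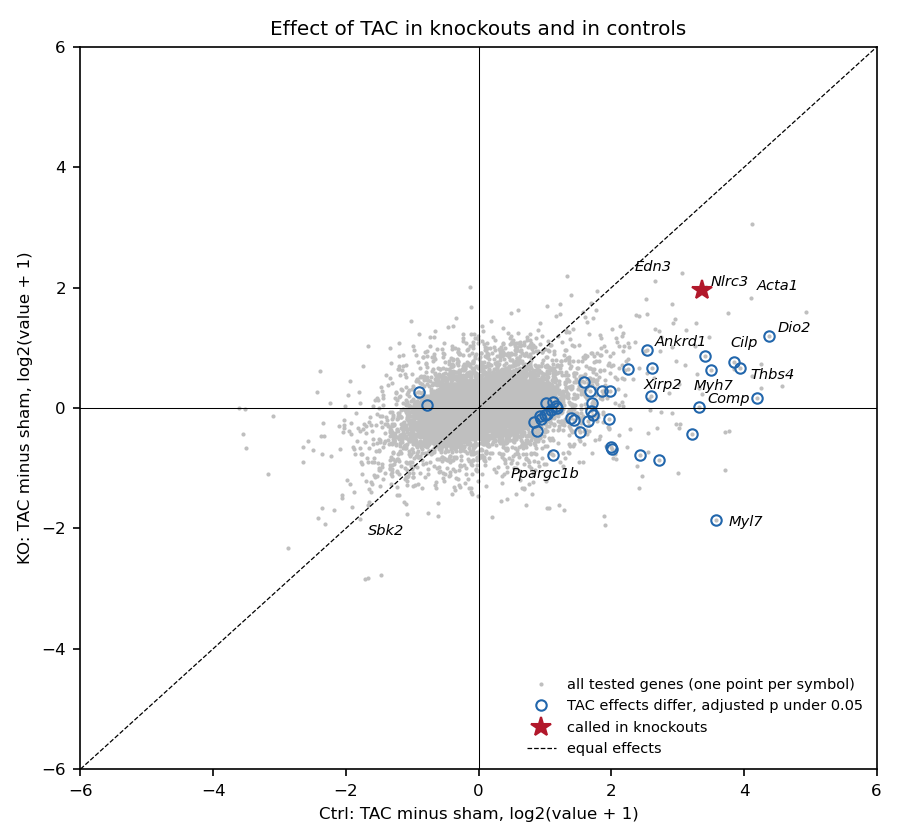
Effect of TAC in knockouts (vertical) against that in controls (horizontal), both on the log2(value + 1) scale, for the tested genes; circles mark the genes whose effects differ and the star Nlrc3. The circles lie at the right, above 0 in controls, but for Fahd2a and Hey1; Myl7 and Ppargc1b are among those below 0 in knockouts.

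No marker of another cell type passed in knockouts, but the marker lists spread among the TAC libraries. Erythroid markers, 7 tested, had a median of 0.26, made of 0.50, 1.06 and −0.45 in TAC replicates 1, 2 and 3, and summed to between 3487 and 10893 after TAC and between 4827 and 6211 after sham. Macrophage markers had a median of 0.12 (0.26, 0.36 and −0.28) and mesothelial markers −0.14 (−0.11, 0.46 and −0.64). Mesothelial markers summed to 2455 to 2747 after TAC and 3432 to 3776 after sham. Most of that sum was C3 alone, at 2205, 2112 and 2126 after TAC and 3159, 2906 and 3096 after sham. Endothelial markers had a median of 0.03. Resting fibroblast markers had −0.04 (6 above 0, 9 below), with summed levels of 25426 to 32295 after TAC and 32658 to 34039 after sham. Much of this sum was Gsn alone, at 14408, 16653 and 13391 after TAC and 19465, 18995 and 18818 after sham. The gap between the sums is therefore not a measure of the list. Schwann cell and neuron markers had −0.56, with sums of 268 to 391 after TAC and 454 to 490.3 after sham. Among them Th and Chrna3 were at 0. Of 19 lymphocyte markers 5 were tested, 2 above 0 and 3 below, with a median of −0.06. Ptprc, the pan-leukocyte CD45, was at 132, 131 and 124 after TAC and 93.6, 78.5 and 102 after sham, while Cd4 was below sham in every TAC library (−0.37) and Cd79b differed by −0.46, or 0.33 without replicate 3. Of 9 neutrophil markers 3 were tested, with a median of 0.91 and sums of 53.2 to 77.2 after TAC and 26.5 to 69.2 after sham; Ly6g and Camp were at 0. The part of blood and immune cells in the interferon and B2m values, which were likewise lowest in replicate 3, was not tested.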

How the data were processed

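Per the labels, TRIzol served for extraction and a stranded mRNA kit for the libraries; per the submitters' processing notes, STAR, SAMtools, featureCounts and GRCm38.p6 were used, without versions. The strand setting of the counting is not given in the sources used here. Signal values in the deposited table are the authors' reads over a library's size factor, as the values themselves show: 100% came back as whole reads within 0.01. edgeR on these reads called 1 gene in knockouts. The design had planned edgeR for raw counts and limma-trend for such normalised values. Genes that reached 10 in 3 or more libraries were fitted by limma-trend (limma 3.58.1, R 4.3.3, robust) on log2(value + 1) with 4 group means over 12 libraries, with Benjamini-Hochberg adjustment at 0.05.

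Alternatives were edgeR 4.0.16 and DESeq2 1.42.0 on the recovered reads, quality weights by voom, array weights, pseudocounts of 0.5 and 5, other filters and scalings, a block for the replicate number, a length and GC loess (span 0.5) and leaving out each library. Leaving out knockout TAC replicate 3 and control sham replicate 3 together was added after the data were seen. Members, lists and tests were chosen with earlier results of these data known. Named were a fixed set of heart genes, every gene that passed, the 15 highest and 15 lowest differences (p under 0.01, mean of at least 30, no overlap), up to 4 members per list by p, the 8 smallest p for the difference of effects, and 8 genes in each direction for replicate 3. Other list members, Fahd2a and Hey1 were named after their values were seen. Predicted genes are not named. Reads of overlapping, antisense and paralogous genes are uncertain. IDs were matched to GENCODE M21 (55394 of 56350), and promoters to RefSeq on GRCm38.p6 by symbol. Python 3.11.15, numpy 2.4.6, pandas 2.3.3 and matplotlib 3.10.9 were used.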

Additional observations from a re-analysis of the deposited data

Results flagged for a closer look

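The effect of TAC differed between knockouts and controls by a test of the difference itself for 18 of the genes named here, each with an adjusted p under 0.05 over all genes (limma-trend). On the log2(value + 1) scale 16 differences were negative, the knockout effect lying below the control effect, and 2 were positive, 0.83 for Fahd2a and 1.15 for Hey1. The negative ones were −3.27 for Thbs4, −3.31 for Comp, −3.09 for Cilp, −2.55 for Ltbp2, −3.22 for Fmod, −4.03 for Col12a1, −1.61 for Col8a1 and −1.62 for Svep1 among matrix genes. Among muscle genes they were −2.86 for Myh7, −1.95 for Xirp2, −1.57 for Ankrd1, −1.17 for Enah and −5.44 for Myl7. The others were −3.18 for Dio2, −1.58 for Atp8a2 and −1.91 for Ppargc1b. Groups of 3 libraries were too small for a search for single libraries that stand apart gene by gene.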

How the results depend on the processing

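Nlrc3 passed in 26 of 27 alternatives (differences from 1.81 to 2.12) and missed without knockout TAC replicate 1. The number of genes called in knockouts was 23 by DESeq2 and 32 from the knockout libraries alone. It was 837 by voom with quality weights and 2410 with array weights. Knockout TAC replicates 1, 2 and 3 had array weights of 6.32, 0.922 and 0.367 and voom weights of 2.75, 1.32 and 0.427. Both kinds of weight give replicate 3 the least among these 3 and rest most on replicate 1. The number called was 209 without both libraries that stood apart, 2 with no filter and 0 to 7 with 1 library left out. In controls 3006 genes became 1559 with the length and GC trend removed, and 1549 to 3656 with 1 library left out. The 43 differences of effects became 480 by DESeq2, 1535 by voom, 2523 with array weights, 1143 without both libraries, 21 with the trend removed, 124 with no filter, 65 with a pseudocount of 5, and 8 to 755 with 1 library left out. For counts that grew, the cause was not tested.

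Same-numbered knockout libraries deviated together at correlations of 0.013, −0.0036 and 0.029, and control libraries at 0.050, 0.16 and 0.066. Not every pair was over 0.1, so the numbers were not taken to pair samples; the labels do not say whether they do. With the replicate number as a block 3 genes passed in knockouts, Nlrc3, Edn3 and Ankrd1.

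Among knockout differences that had not passed, the sign turned with a move of 1 SE or more for Col1a1 (0.059) and mt-Nd1 (−0.012) with the trend removed, for Fn1 (−0.16), Comp (−0.39), Pdk4 (0.22), Cd79b (0.21) and Spaca6 (−0.21) with array weights, for Col12a1 without knockout TAC replicate 2 (−0.56), and without replicate 3, alone or with control sham replicate 3, for Cd79b (0.33), Cpt1b (−0.083), Zkscan3 (−0.41) and Spaca6 (−0.24). With 1 library left out Cd79b ran from −0.86 to 0.33, Cpt1b from −0.083 to 0.18, Col12a1 from −0.56 to 0.55, Zkscan3 from −0.41 to 0.32 and Spaca6 from −0.24 to 0.40. With smaller moves it also turned for Cdkn1a, Firre, Svep1 and Col3a1 (in 1, 1, 2 and 3 alternatives), and Comp turned in 7 in all. Medians of the hypertrophy, matrix and interferon lists stayed above 0 and those of fatty acid oxidation and ion channels below 0 in all 27; oxidative phosphorylation reached 0.01 in 2 without replicate 3.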
